A study of Mus musculus with 45 samples.

Results

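The genes described here are 34 nuclear genes that encode the translation factors and aminoacyl-tRNA synthetases of the mitochondrion. They were chosen by symbol, by a rule that reads no measured value, though the list was proposed with earlier results of these data known. They are 34 of the 55385 genes in the deposited tables. By role they are 16 tRNA synthetases, 4 genes of the amidotransferase and the formyltransferase, 2 initiation factors, 4 elongation factors, 4 release and recycling factors and 4 GTPases of mitochondrial ribosome assembly.

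The libraries come from mouse embryos and embryonic stem cells in which both *Gabpa* alleles carry a dTAG degron (genotype Gabpa-dTAG/dTAG), so the control libraries carry the tagged alleles too. dTAG13 is a small molecule that brings a degron-tagged protein to a ubiquitin ligase for destruction, and the vehicle DMSO was the control. The question was which transcripts depend on GABPA at each step from genome activation to naive pluripotency. RNA was read in late two-cell (L2C) embryos with 3 libraries per treatment, and in morulae, the inner cell mass at embryonic day 4.5 (E4.5 ICM) and 2iES cells with 2 libraries per treatment. Embryos received dTAG13 at 1 µM, from the zygote for L2C, from the four-cell stage for morulae and from the early blastocyst for the ICM. The 2iES cells, a tagged ES-E14 line raised from a picked clone and kept in 2i/LIF medium, received 0.5 µM for 24 h. The embryos came from knock-in mice made by editing embryos, whose mosaic founders were bred to C57BL/6J. The ICM was freed by immunosurgery and holds both epiblast (EPI) and primitive endoderm (PrE) cells. Dose, duration and starting point therefore differ between stages.

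Mitochondria translate the few messages encoded by their own DNA with a separate set of ribosomes, tRNA synthetases and factors, all of these proteins being made in the cytosol and imported. Each synthetase loads 1 amino acid onto its mitochondrial tRNA, initiation factors place formyl-methionyl-tRNA on the ribosome, the elongation factor EF-Tu (*Tufm*) delivers each later tRNA, and release and recycling factors free the finished chain and the ribosome. GABPA, also known as nuclear respiratory factor 2 alpha, is an ETS family factor long associated with promoters of nuclear genes for mitochondrial proteins.

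Each library held 9457933 to 27660132 expected counts, and the morula libraries were the shallowest at 9457933 to 12382705. *Gabpa* mRNA was higher with dTAG13 in every comparison of group means (103 ± 14.7 against 153 ± 10.6 TPM in L2C, SD, n = 3), and since dTAG13 removes the protein this transcript does not report on depletion. Levels are given as TPM, a transcript abundance scaled for transcript length and library depth. L2C dTAG13 replicate 1 stood apart in 12 leukocyte markers, whose TPM summed to 816.6 against 31.7 to 41.7 in the other 5 L2C libraries, while *S100a8* and *S100a9* of that list were at 0 in all 6. In the ICM, 18 trophectoderm (TE) markers summed to 1522 and 1547 TPM with DMSO and to 3880 and 3897 with dTAG13, 15 EPI markers to 4062 and 4107 against 2336 and 2351, and 14 PrE markers to 1840 and 1883 against 3041 and 3049, with no marker of these lists at 0. In 2iES cells the 13 mitochondrially encoded mRNAs summed to 3731 and 25210 TPM with DMSO and to 44380 and 51590 with dTAG13. Defining markers were present at the labelled stages, EPI markers summing to 4062 TPM or more in the ICM and 3653 or more in 2iES cells with DMSO, and two-cell markers to 365.7 or more in L2C against 57.0 or less at the other stages with DMSO. The 2 ICM libraries of each treatment differed by 1.63 and 1.69 times what read sampling alone gives, against 2.84 to 16.3 times elsewhere. The paper describes biological replicates for L2C, the ICM and 2iES cells, and the labels do not say whether replicates came from separate pools. The p-values therefore measure the spread between these libraries, which may be technical.

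The promoters of the members were read from RefSeq windows on GRCm38.p6 that run from 250 bases before to 50 bases after the annotated start, and 28 of the 34 genes had an entry (*Hars2*, *Pars2*, *Gatb*, *Mtif3*, *Guf1* and *Noa1* had none). The ETS core CCGGAA, read on both strands, was found in 14 of 29 member windows (48.3%) and in 14.9% of all 32851 windows. Its 8-letter form CCGGAAGT, which contains the core, was found in 3 member windows (10.3%, against 3.89% of all). GCATGCGC (NRF1) was in 17.2% of member windows and 2.71% of all, ATGGCGGC (YY1) in 10.3% and 2.24%, and GGGCGG (SP1) in 65.5% and 35.7%. The sites below are those of the members called lower with dTAG13 at 1 or more stages, shown because they let the changed genes be compared at the base level. Each is the strand of the gene, 5′ to 3′, with the core in capitals on whichever strand it reads.
Tufm, chr7:126487341-126487370, plus strand: ccctcatttccgCCGGAAgtgatctgcagt
Rars2, chr4:34614942-34614971, plus strand: agcagaggcgacTTCCGGcgcggaggcggg
Gfm1, chr3:67430102-67430131, plus strand: ctgaccttcctcCCGGAAgtgctcctgcgg
Cars2, chr8:11550771-11550800, minus strand: gagtgtagcctcTTCCGGgagtgggcggag
Iars2, chr1:185329422-185329451, minus strand: cagacttccaagCCGGAAaaccccgccctt
Mtg1, chr7:140137582-140137611, plus strand: aacccaggcgcgCCGGAAccctgtgagcag
Sars2, chr7:28741803-28741832, plus strand: acctccagccccTTCCGGggttcctcctta

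The 3 windows with the 8-letter form were those of *Tufm*, *Rars2* and *Gfm1*, and in each the core began within 3 bases of the annotated start (positions -2, -3 and -1, with -1 the last base before the start). *Cars2* had the core at -17, *Iars2* at -38, *Sars2* at -153 and *Mtg1* at 31. Of the members with a window, the core was present in 3 of 4 called lower at 2 or more stages, in 4 of 5 called lower at 1 stage and in 7 of 19 called lower at none. The 8-letter form was in 2 of 4, 1 of 5 and 0 of 19. The windows of *Mtrf1l* and *Gfm2*, both called lower, held neither. A match of letters is a description of the window, and binding was not analysed here.

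Across stages, 10 of the 34 members fell with dTAG13 at 1 or more stages (29.4%) and 2 rose (5.88%), *Gatc* in L2C and *Noa1* in the ICM, while 22 (64.7%) were called at none. Of the 11310 genes tested at all stages, 25.4% fell at 1 or more stages, 17.6% rose and 58.0% were called at none, so the share of members that fell was near that of all genes. A gene is said to fall or rise, and is counted as called, when its adjusted p was under 0.05, its fold change at least 2 and its mean FPKM at least 1 in 1 group. *Tufm* fell at all 4 stages. *Rars2* and *Hars2* fell at 3 stages (L2C, ICM and 2iES), *Cars2* at 2 (ICM and 2iES) and *Mtrf1l* at 2 (L2C and 2iES). *Iars2*, *Sars2*, *Gfm1*, *Gfm2* and *Mtg1* fell in 2iES cells and were called at no other stage. No member was called in opposite directions at different stages. By the adjusted p alone, 4 were lower at one stage and higher at another (*Aars2*, *Gatc*, *Mtif2* and *Tsfm*), and 3 passed at none (*Gatb*, *Vars2* and *Wars2*). The shares of all genes with these patterns were not computed, so the counts are not compared with them. Of these opposite results, DESeq2 did not call the ICM values of *Mtif2* (adjusted p = 0.238) and *Tsfm* (0.0715), and that of *Aars2* in 2iES cells was lost without dTAG13 replicate 2 (0.151).

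**Figure D1:**
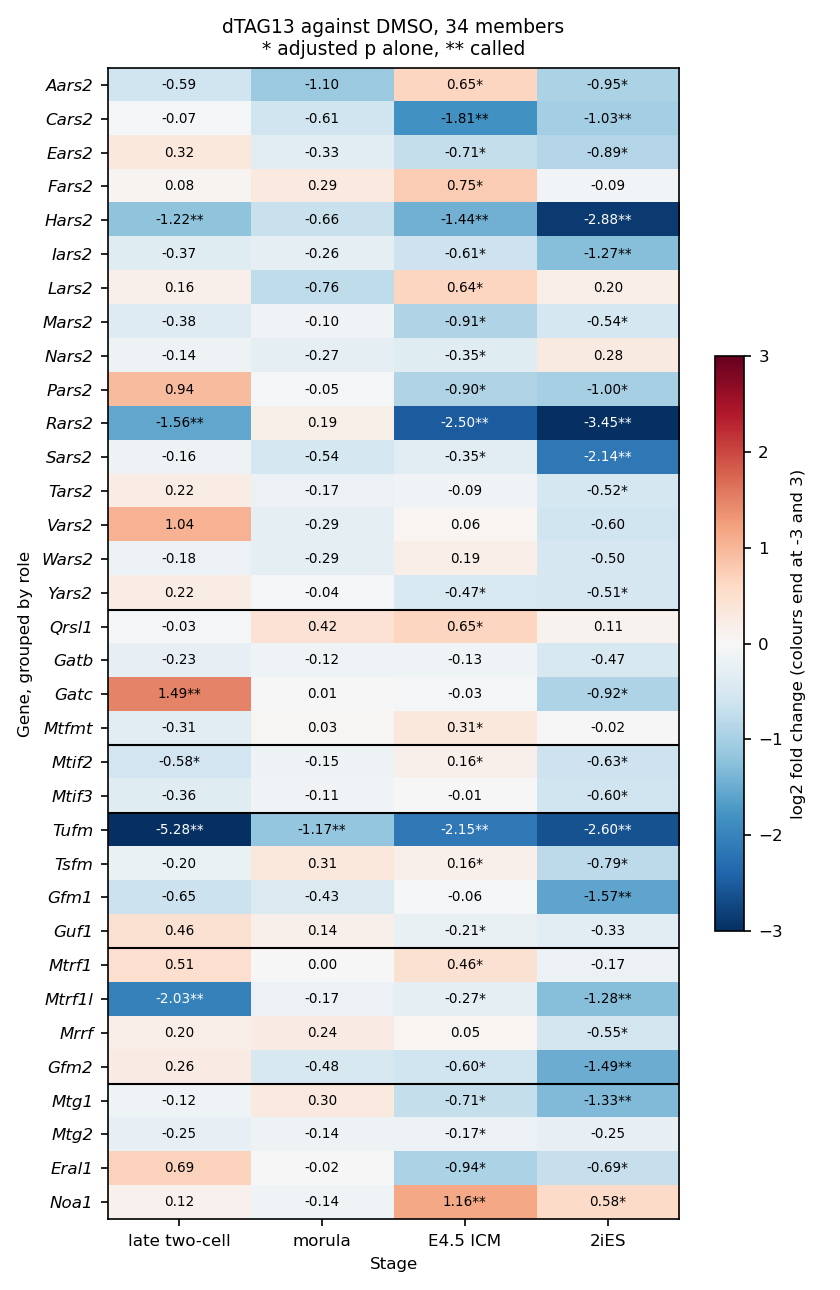
Heat map of the log2 fold change (dTAG13 against DMSO) of each of the 34 members at 4 stages, with rows grouped by role and lines between roles; 1 asterisk marks an adjusted p under 0.05 alone and 2 mark a called member. The *Tufm* row is called at all 4 stages, and the 2iES column holds 10 called members, all lower.

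In L2C, 4 members (11.8%) fell, where 3.63% of the 17421 genes tested fell, and 1 (2.94%) rose, where 0.476% of all genes rose. With the adjusted p alone these were 5 members lower (14.7%, against 7.24% of all genes) and 1 higher (2.94%, against 1.32%). The median log2 fold change of the members was -0.13 and that of all genes 0.02, and 20 members were below 0 and 14 above. In the same libraries 16 maternal oocyte markers summed to 1866 to 1944 TPM with DMSO and 2374 to 2649 with dTAG13, and their part in these results was not tested. Without dTAG13 replicate 1, the library with leukocyte markers, 2 members fell (*Rars2* and *Tufm*) and 1 rose, and without DMSO replicate 2 the same 2 fell and 0 rose. Over all genes 633 fell and 83 rose, against 563 and 45 without dTAG13 replicate 1 and 672 and 132 with DESeq2.

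Morulae had 1 member that fell (2.94%), where 0.198% of the 13667 genes tested fell, and 0 that rose, where 0.154% of all genes rose. That member was *Tufm*, 1 of 27 genes called lower at this stage. The count over all genes moved with the processing. It was 32 with upper-quartile scaling, 66 with DESeq2, 76 with library totals and 142 with a replicate block. With the adjusted p alone the counts were the same, against 0.205% of all genes lower and 0.161% higher. The 0 higher members came from edgeR, and 0 passed an unadjusted p under 0.05 and 0 were called higher by DESeq2. The members' median was -0.14 and that of all genes -0.02. The *Tufm* log2 fold change was -1.06 without dTAG13 replicate 1 and -1.165 without DMSO replicate 2. Such fits leave 1 library in a group, and the *Tufm* call was not kept in each of them.

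Within the ICM, 4 members (11.8%) fell and 1 (2.94%) rose, shares that were not above the 13.2% and 12.1% of 15840 genes that fell and rose. By the adjusted p alone 17 members (50%) were lower and 9 (26.5%) higher, against 38.5% and 38.4% of all genes. The members' median was -0.15 and that of all genes 0.01. In these libraries 11 of 18 TE markers rose and 2 fell, and 9 of 15 EPI markers fell and 0 rose, and their part in the members' changes was not tested. From RNA of a bulk sample alone, fewer cells of a type and less RNA per cell cannot be told apart. The paper reports that this ICM was collected at the mid-blastocyst stage, before the treatments differed in EPI cell number.

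In 2iES cells, 10 members (29.4%) fell and 0 rose, where 15.6% and 12.4% of the 15511 genes tested fell and rose. With the adjusted p alone 22 members (64.7%) were lower and 1 (2.94%) was higher, against 28.1% and 26.5% of all genes. The members' median was -0.61 and that of all genes 0.03, and 30 of the 34 members were below 0. The 0 higher members came from edgeR, and 1 passed an unadjusted p under 0.05 and 0 were called higher by DESeq2. The summed mitochondrially encoded mRNAs given above moved with the treatment here, as did TE markers (1127 and 1219 TPM against 2171 and 2217) and EPI markers (3653 and 4467 against 2139 and 2156), and their part was not tested. Upper-quartile scaling moved the median of all genes to 0.21 and that of the members to -0.43, with 9 members lower and 0 higher, and it moved the calls over all genes from 2415 lower and 1924 higher to 1994 lower and 2467 higher.

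Among the elongation factors, *Tufm* encodes mitochondrial EF-Tu, the carrier of aminoacyl-tRNA, and lies on chromosome 7 from 126487361 to 126490731 on GRCm38. Its level in L2C was 14.7, 16.0 and 12.9 TPM with DMSO and 0, 0.40 and 0.96 TPM with dTAG13, from 501, 535 and 444 expected counts against 0, 8 and 34. All 3 dTAG13 libraries were far below all 3 DMSO libraries, and the mean was 3.11% of the DMSO mean (log2 fold change -5.28 ± 0.71, SE, adjusted p = 8.66e-04). Without the library with leukocyte markers, which is also the one at 0, it was -4.68 (adjusted p = 6.97e-04). Without dTAG13 replicate 3, the one at 34 counts, it was -7.10 (adjusted p = 2.09e-04), so its size is uncertain.

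In morulae the DMSO libraries held *Tufm* at 52.1 and 53.4 TPM and the dTAG13 libraries at 23.1 and 24.1, a log2 fold change of -1.17 ± 0.20 (adjusted p = 0.0219). ICM libraries gave 72.8 and 74.1 against 17.9 and 17.3 TPM (-2.15 ± 0.05, adjusted p = 1.07e-29). The 2iES libraries gave 54.3 and 39.6 against 7.17 and 7.85 TPM (-2.60 ± 0.19, adjusted p = 1.09e-04). No dTAG13 library overlapped a DMSO library at any stage. All dTAG13 libraries lay below all DMSO libraries for 12.8% of genes tested in L2C and 23.5% in morulae. In the ICM and 2iES cells this held for 40.0% and 40.1% of genes tested. In morulae the call was lost without dTAG13 replicate 1 (-1.06, adjusted p = 0.132) and when all 18 libraries were fitted together (-1.09, adjusted p = 0.152). *Tufm* shares 58.2% of its 31-base words with the pseudogene *Gm9755*, so reads could be split between them, but *Gm9755* was at most 1.04 TPM in any library.

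The partner factors of *Tufm* moved less. *Tsfm* encodes EF-Ts, which recharges EF-Tu with GTP, and was at 101 ± 20.4 TPM with DMSO and 62.1 ± 0.71 with dTAG13 in 2iES cells (SD, n = 2, log2 fold change -0.79 ± 0.15, adjusted p = 0.00454, under the fold threshold). *Gfm1* encodes EF-G1, the translocase, and fell in 2iES cells from 12.6 ± 0.83 to 4.21 ± 0.08 TPM (-1.57 ± 0.15, adjusted p = 2.64e-04). In the ICM *Gfm1* was at 38.0 and 37.1 TPM by group mean, a log2 fold change of -0.06 that did not pass the test. *Guf1*, a ribosome-associated GTPase, was not called at any stage.

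The initiation factors *Mtif2* and *Mtif3* passed the fold threshold at no stage. *Mtif2*, which recruits the initiator tRNA, was at 18.9 ± 2.57 TPM with DMSO and 10.8 ± 0.64 with dTAG13 in L2C (SD, n = 3, log2 fold change -0.58 ± 0.15, adjusted p = 0.0379). Its log2 fold change was 0.16 ± 0.07 in the ICM (adjusted p = 0.0372) and -0.63 ± 0.14 in 2iES cells (adjusted p = 0.00803). Its L2C result was lost in the fits without any 1 library but DMSO replicate 3 (adjusted p from 0.096 to 0.124), its ICM result without DMSO replicate 1, DMSO replicate 2 or dTAG13 replicate 1 (0.105, 0.179 and 0.14), and its 2iES result without dTAG13 replicate 1 or 2 (0.12 and 0.0869). Upper-quartile scaling (0.0887) and library totals (0.0677) also ended the L2C result, and DESeq2 (0.238) the ICM result. *Mtif3*, which keeps the ribosomal subunits apart before initiation, had a log2 fold change of -0.60 ± 0.17 in 2iES cells (adjusted p = 0.0216) and of -0.01 in the ICM. *Mtif3* overlaps *Gtf3a* on the other strand over 29.4% of its exonic bases, and the library kit does not mark strand, so its reads and those of *Gtf3a* cannot be told apart there.

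Of the 16 tRNA synthetases, 2 fell in L2C, 0 in morulae, 3 in the ICM and 5 in 2iES cells (12.5%, 0%, 18.8% and 31.2%, against 3.63%, 0.198%, 13.2% and 15.6% of all genes), and 0 rose at any stage by edgeR or DESeq2, with 3 higher in the ICM and 0 at the other stages at an unadjusted p under 0.05. At that unadjusted p 4 were lower in morulae, where DESeq2 called 0. *Rars2*, the arginyl-tRNA synthetase, on chromosome 4 from 34614957 to 34660167, showed the largest change of any member in 2iES cells. It was at 66.1 and 59.1 TPM with DMSO and 5.52 and 6.18 with dTAG13 there, 9.35% of the DMSO mean (log2 fold change -3.45 ± 0.13, adjusted p = 2.16e-05). In the ICM *Rars2* was at 70.8 and 67.6 against 12.3 and 12.5 TPM (-2.495 ± 0.06, adjusted p = 1.68e-31). The L2C libraries gave 6.88, 7.51 and 4.39 against 2.19, 2.22 and 2.05 TPM (-1.56 ± 0.27, adjusted p = 0.00396). Morulae stood apart, with 15.3 and 27.9 TPM in DMSO libraries and 25.2 and 22.5 in dTAG13 libraries, which overlapped.

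*Hars2*, the histidyl-tRNA synthetase, on chromosome 18 from 36783008 to 36792562, was at 4.70 and 5.02 TPM with DMSO and 0.53 and 0.93 with dTAG13 in 2iES cells (log2 fold change -2.88 ± 0.21, adjusted p = 1.12e-04). ICM values were 13.6 and 12.6 against 5.52 and 5.38 TPM (-1.44 ± 0.09, adjusted p = 1.18e-16). In L2C it was at 7.65, 15.1 and 8.77 against 4.78, 7.14 and 5.35 TPM (-1.22 ± 0.28, adjusted p = 0.0224). The groups did not overlap at these stages, but in L2C the lowest DMSO and the highest dTAG13 library lay close together, and the call was lost without DMSO replicate 2, dTAG13 replicate 1 or dTAG13 replicate 3 (adjusted p = 0.0772, 0.0884 and 0.0873). In morulae *Hars2* was at 7.36 and 9.08 against 4.57 and 3.46 TPM, also without overlap, and did not pass the test (-0.66). The shares of all genes without overlap given for *Tufm* apply here too, 23.5% in morulae. Its exons overlap those of *Hars*, the cytosolic enzyme gene on the other strand, over 4.56% of their bases.

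*Cars2*, the cysteinyl-tRNA synthetase, on chromosome 8 from 11513977 to 11550783, fell in the ICM from 17.3 and 19.4 to 5.35 and 4.57 TPM (log2 fold change -1.81 ± 0.10, adjusted p = 2.35e-18). In 2iES cells it was at 26.57 and 17.03 against 10.97 and 9.34 TPM (-1.03 ± 0.21, adjusted p = 0.00597). The 2iES value sat at the edge of the fold threshold and was no longer called without DMSO replicate 1 (-0.76) or dTAG13 replicate 2 (-0.98), or with upper-quartile scaling (-0.85), library totals (-0.985), a minimum of 50 counts (-0.911) or all 18 libraries in 1 fit (-0.968). In L2C the 6 libraries overlapped between 16.98 and 24.76 TPM, and morula libraries were at 18.9 and 15.1 against 14.1 and 10.1 TPM without passing the test.

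The other called synthetases were *Sars2*, for serine, at 12.0 ± 3.35 against 2.60 ± 0.31 TPM in 2iES cells (SD, n = 2, log2 fold change -2.14 ± 0.24, adjusted p = 5.41e-04), and *Iars2*, for isoleucine, at 3.76 ± 0.20 against 1.43 ± 0.14 TPM (-1.27 ± 0.17, adjusted p = 0.00112). *Iars2* shares 23.6% of its 31-base words with other genes, mostly the overlapping *Rab3gap2*, and is uncertain for that reason. *Sars2* in the ICM was at 28.7 ± 0.24 against 23.1 ± 0.19 TPM (-0.35 ± 0.06), which passed the adjusted p (1.51e-06) and not the fold threshold. *Lars2*, *Fars2* and *Aars2*, for leucine, phenylalanine and alanine, were higher in the ICM by the adjusted p alone, with log2 fold changes of 0.64 ± 0.03, 0.75 ± 0.08 and 0.65 ± 0.13. *Nars2*, for asparagine, was lower there by counts (-0.35 ± 0.08) while its TPM was 11.1 ± 0.58 with DMSO and 12.6 ± 1.65 with dTAG13. It was the only result past the adjusted p in which counts and TPM, which depends on transcript length, differed in sign. *Vars2* and *Wars2*, for valine and tryptophan, passed the adjusted p at no stage.

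**Figure D2:**
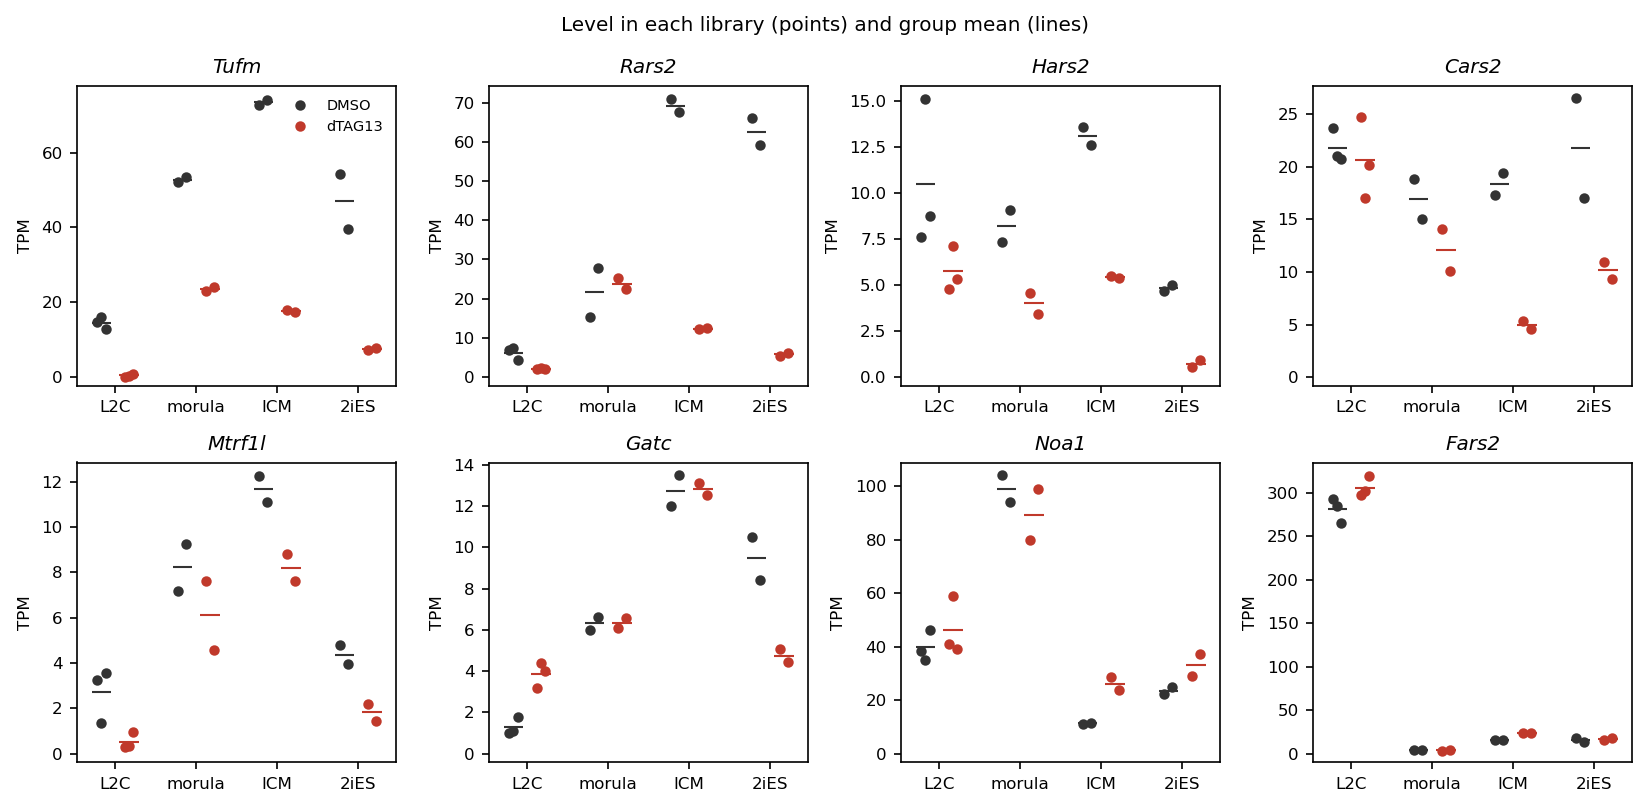
TPM (linear axis) of 8 members in each of the 18 libraries, by stage, with DMSO libraries in black and dTAG13 libraries in red and a line at each group mean. *Tufm* is lower with dTAG13 at every stage, the *Rars2* groups overlap in morulae alone, and *Gatc* is higher in L2C and lower in 2iES cells.

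Mitochondrial glutaminyl-tRNA is made from a mischarged precursor by an amidotransferase of subunits A (*Qrsl1*), B (*Gatb*) and C (*Gatc*). *Gatc*, on chromosome 5 from 115333239 to 115341178, rose in L2C from 1.02, 1.11 and 1.78 to 3.17, 4.37 and 4.00 TPM (log2 fold change 1.49 ± 0.32, adjusted p = 0.0138). All 3 dTAG13 libraries were above all 3 DMSO libraries, as they were for 14.5% of all genes tested. The call was lost without DMSO replicate 1 (adjusted p = 0.0619), DMSO replicate 2 (0.0504) or dTAG13 replicate 2 (0.0661). In 2iES cells *Gatc* went the other way, at 10.5 and 8.43 against 5.06 and 4.42 TPM (-0.92 ± 0.18, adjusted p = 0.00534, just under the fold threshold), and there the adjusted p was 0.0648 without dTAG13 replicate 2. Morula and ICM libraries overlapped, at log2 fold changes of 0.01 and -0.03. *Qrsl1* was at 12.0 ± 0.39 against 24.4 ± 1.05 TPM in the ICM, with a log2 fold change by counts of 0.65 ± 0.08 (adjusted p = 2.16e-09), while *Gatb* passed the adjusted p at no stage. *Mtfmt*, the formyltransferase that marks the initiator tRNA, had a log2 fold change of 0.31 ± 0.09 in the ICM and shares 11.2% of its 31-base words with other genes.

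In the release and recycling group, *Mtrf1l* encodes the release factor for the standard stop codons and lies on chromosome 10 from 5811887 to 5823910. It was at 3.23, 1.34 and 3.56 TPM with DMSO and 0.28, 0.34 and 0.97 with dTAG13 in L2C (log2 fold change -2.03 ± 0.51, adjusted p = 0.0331). These levels rest on 9, 19 and 37 expected counts with dTAG13 and 59 to 104 with DMSO, and the call was lost without any 1 of DMSO replicates 1, 2 and 3 and dTAG13 replicates 1 and 2 (adjusted p from 0.0532 to 0.121). In 2iES cells *Mtrf1l* was at 4.78 and 3.95 against 2.19 and 1.46 TPM (-1.28 ± 0.21, adjusted p = 0.00238), a call kept in every fit without 1 library. Morula values were 7.19 and 9.24 against 7.63 and 4.57 TPM, which overlapped, and ICM values 12.2 and 11.1 against 8.79 and 7.62 TPM (-0.27 ± 0.11, adjusted p = 0.0203).

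*Gfm2*, the EF-G2 that splits ribosomes after termination, fell in 2iES cells from 10.6 ± 1.02 to 4.67 ± 1.03 TPM (SD, n = 2, log2 fold change -1.49 ± 0.20, adjusted p = 0.00110). The recycling factor *Mrrf*, its partner, had a log2 fold change of -0.55 ± 0.15 there (adjusted p = 0.0179), and 20.1% of its 31-base words are shared with other genes. *Mtrf1* was higher in the ICM by the adjusted p alone, at 0.46 ± 0.10.

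The ribosome assembly GTPases differed among themselves. *Noa1*, on chromosome 5 from 77294182 to 77310084, was the member that rose in the ICM, from 11.2 and 11.6 to 28.5 and 23.9 TPM (log2 fold change 1.16 ± 0.09, adjusted p = 8.89e-15). In 2iES cells it was at 22.2 and 24.9 against 28.9 and 37.2 TPM (0.58 ± 0.16, adjusted p = 0.0190), the single member higher there by the adjusted p, which was lost without dTAG13 replicate 1 (0.103) or 2 (0.269). L2C and morula libraries overlapped. *Mtg1* fell in 2iES cells from 29.9 ± 4.81 to 11.5 ± 0.91 TPM (SD, n = 2, -1.33 ± 0.18, adjusted p = 0.00108) and had a log2 fold change of -0.71 ± 0.06 in the ICM (adjusted p = 1.09e-12). *Eral1*, which binds the small subunit rRNA, was at 16.4 ± 0.06 against 8.53 ± 0.11 TPM in the ICM, just under the fold threshold by counts (-0.94 ± 0.08), and *Mtg2* was called at no stage.

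Paralogs are set side by side here, without a test of the differences between them. *Mtrf1l* had a log2 fold change of -2.03 ± 0.51 and *Mtrf1* of 0.51 in L2C, and in 2iES cells -1.28 ± 0.21 and -0.17. *Gfm1* and *Gfm2* were, in 2iES cells, at -1.57 ± 0.15 and -1.49 ± 0.20. In the ICM they were at -0.06 and -0.60 ± 0.06. *Mtif2* and *Mtif3* were at -0.63 ± 0.14 and -0.60 ± 0.17 in 2iES cells.

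The effect of dTAG13 was compared between stages by an interaction term in 1 fit of all 18 libraries. It differed for 5 members (14.7%) between L2C and morula, where it differed for 6.47% of the 21915 genes tested, for 10 (29.4%, against 20.3%) between L2C and ICM and for 12 (35.3%, against 22.9%) between L2C and 2iES. It differed for 5 (14.7%, against 16.1%) between morula and ICM, for 10 (29.4%, against 20.3%) between morula and 2iES and for 8 (23.5%, against 17.4%) between ICM and 2iES. Against 2iES cells the change was the more negative in 2iES for 11 of the 12 members in L2C, 8 of 10 in morulae and 7 of 8 in the ICM. This split was not counted over all genes, so it cannot be said to be particular to the members. The pairs of stages share libraries, and the counts rest on single libraries. Without any 1 of the 8 ICM and 2iES libraries 3 to 5 members differed between these stages, without any 1 ICM library 5 differed between L2C and ICM, and without morula dTAG13 replicate 1 2 differed between L2C and morula and 6 between morula and 2iES.

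The log2 effect on *Tufm* was more negative in L2C than at each other stage, differing by -4.21 ± 0.59 from that in morulae (adjusted p = 1.93e-04), by -3.17 ± 0.59 from the ICM (adjusted p = 0.00117) and by -2.75 ± 0.60 from 2iES cells (adjusted p = 0.00264). *Rars2* differed most in morulae, where its effect was above that in L2C by 1.83 (L2C minus morula -1.83 ± 0.33, adjusted p = 0.00183), above the ICM by 2.75 ± 0.35 (adjusted p = 3.55e-05) and above 2iES cells by 3.66 ± 0.35 (adjusted p = 9.58e-07). *Gatc* had the widest difference between opposite directions, 2.33 ± 0.34 between L2C and 2iES cells (adjusted p = 7.50e-05).
*Mtif2*, whose results at single stages were lost in the fits named above, had differences of -0.76 ± 0.22 (L2C minus ICM, adjusted p = 0.0225) and 0.74 ± 0.24 (ICM minus 2iES, adjusted p = 0.0435). *Tsfm* differed by 0.91 ± 0.21 between the ICM and 2iES cells (adjusted p = 0.00656). *Aars2*, at 0.65 ± 0.13 in the ICM and -0.95 ± 0.27 in 2iES cells, did not pass the test of the difference. The *Mtif2* differences were lost in most fits without 1 library (adjusted p from 0.0534 to 0.135), whereas those of *Tufm*, *Rars2*, *Gatc* and *Tsfm* given here passed in every alternative run.

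With DMSO alone, more members differed between L2C and morula than in the later steps. In that step 21 members (61.8%) were higher and 5 (14.7%) lower, where 29.7% and 36.0% of 21915 genes were higher and lower by the adjusted p. From morula to ICM 14 members (41.2%) were higher and 5 (14.7%) lower, against 23.5% and 20.3% of genes, and from ICM to 2iES cells 9 (26.5%) were higher and 8 (23.5%) lower, against 21.3% and 19.8%. The balance of this last step turned with scaling, library totals giving 3 higher and 14 lower, and without 1 library 5 to 10 were higher and 2 to 6 lower. The median level of the 34 members was 6.26 TPM in L2C, 9.05 in morulae, 15.5 in the ICM and 12.3 in 2iES cells. Stage and library series cannot be told apart in these comparisons.

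*Fars2* went the other way, at 293, 285 and 266 TPM with DMSO in L2C and 3.69 and 4.10 in morulae (log2 difference -4.94 ± 0.22, adjusted p = 1.25e-12). It was the highest member by TPM in L2C, the next being *Noa1* at 38.5, 35.1 and 46.2 TPM. Its expected counts in these libraries, 2253, 2163 and 2157, were much closer to the 1798, 1590 and 1794 of *Lars2*, whose TPM was 22.1, 20.3 and 21.1, so the gap in TPM depends on the transcript length used, and 10.7% of the exonic bases of *Fars2* overlap other genes, mostly *Nrn1* on the other strand. *Noa1* was the highest member in morulae at 104 and 94.1 TPM and then dropped to 11.2 and 11.6 in the ICM (-2.27 ± 0.18, adjusted p = 1.11e-08). *Mtg1* was at 4.72 ± 0.29 TPM in L2C (SD, n = 3) and 41.6 ± 1.88 in morulae (3.40 ± 0.15, adjusted p = 1.39e-12).

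*Tufm* was higher in morulae than in L2C by 2.21 ± 0.34 (adjusted p = 1.77e-05), and *Rars2* by 2.15 ± 0.23 (adjusted p = 1.36e-07) with a further 1.39 ± 0.24 from morula to ICM (adjusted p = 1.40e-04). In the ICM *Tufm* and *Rars2* were the first and the second of the 34 by TPM, and their libraries did not overlap. In 2iES cells *Tsfm* was first at 115 and 86.1 TPM, above *Rars2*, whose libraries overlapped those of *Lars2* (61.7 and 43.4 TPM). *Lars2* in turn overlapped *Tufm*. The members at the bottom of the order included *Aars2* and *Vars2*, both under 1 TPM in L2C with DMSO.

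**Figure D3:**
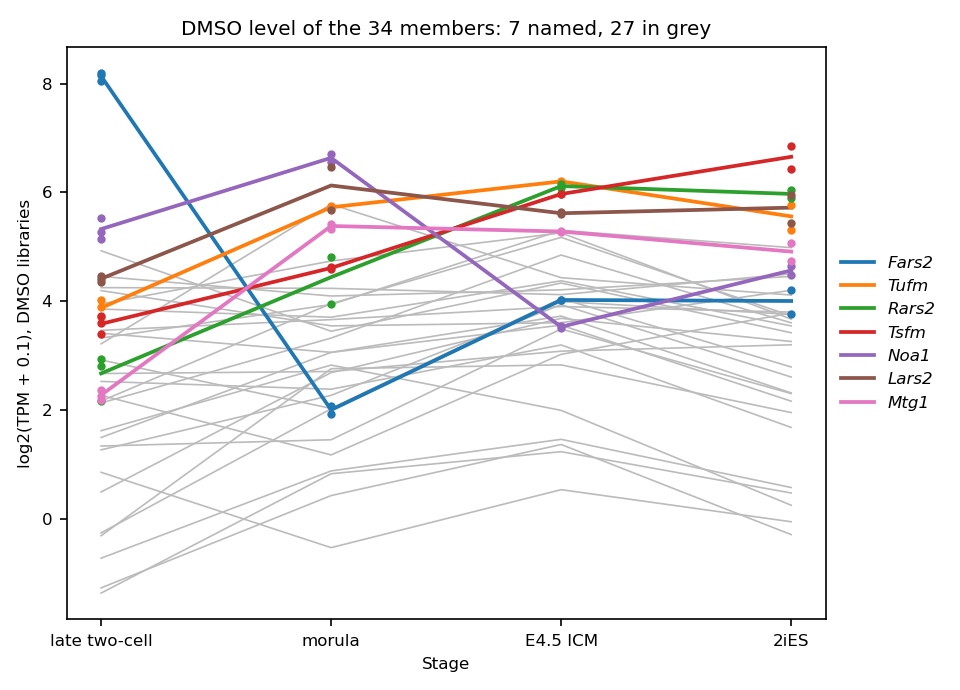
Level of the 34 members with DMSO at 4 stages, as log2(TPM + 0.1) on the vertical axis; coloured lines join the group means of 7 named members, points are their libraries and grey lines are the means of the other 27. *Fars2* drops between L2C and morula by 4.94 in the log2 count fit, while *Tufm*, *Rars2*, *Tsfm* and *Mtg1* are higher in morulae than in L2C.

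Related gene lists put the members in context. Of 80 mitochondrial ribosomal protein genes, 20 fell in L2C, 0 in morulae, 8 in the ICM and 26 in 2iES cells. These were 25.0%, 0%, 10.0% and 32.5%, against 3.63%, 0.198%, 13.2% and 15.6% of all genes, with medians of -0.36, 0.03, -0.43 and -0.66. The ICM share past the fold threshold was below that of all genes. By the adjusted p alone, however, 62 of the 80 were lower and 9 higher in the ICM, against 38.5% and 38.4% of all genes. Among other genes of mitochondrial translation, such as those for tRNA and rRNA modification, 7 of 51, 0 of 52, 10 of 52 and 17 of 52 tested fell (13.7%, 0%, 19.2% and 32.7%), with medians of -0.17 to -0.61 outside morulae and -0.05 in morulae. Of the cytosolic tRNA synthetases, 5 of 23, 0 of 24, 6 of 24 and 11 of 24 fell (21.7%, 0%, 25.0% and 45.8%), with medians of -0.31, -0.01, -0.56 and -0.82. Of the cytosolic translation factors, 1, 0, 1 and 3 of 29 fell (3.45%, 0%, 3.45% and 10.3%, below all genes at each stage), the medians lying between -0.11 and 0.06. Each of these lists had 0 genes called lower in morulae by edgeR and by DESeq2, and 5, 6, 1 and 0 genes in the order given at an unadjusted p under 0.05, in the stage with the fewest calls over all genes.

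**Figure D4:**
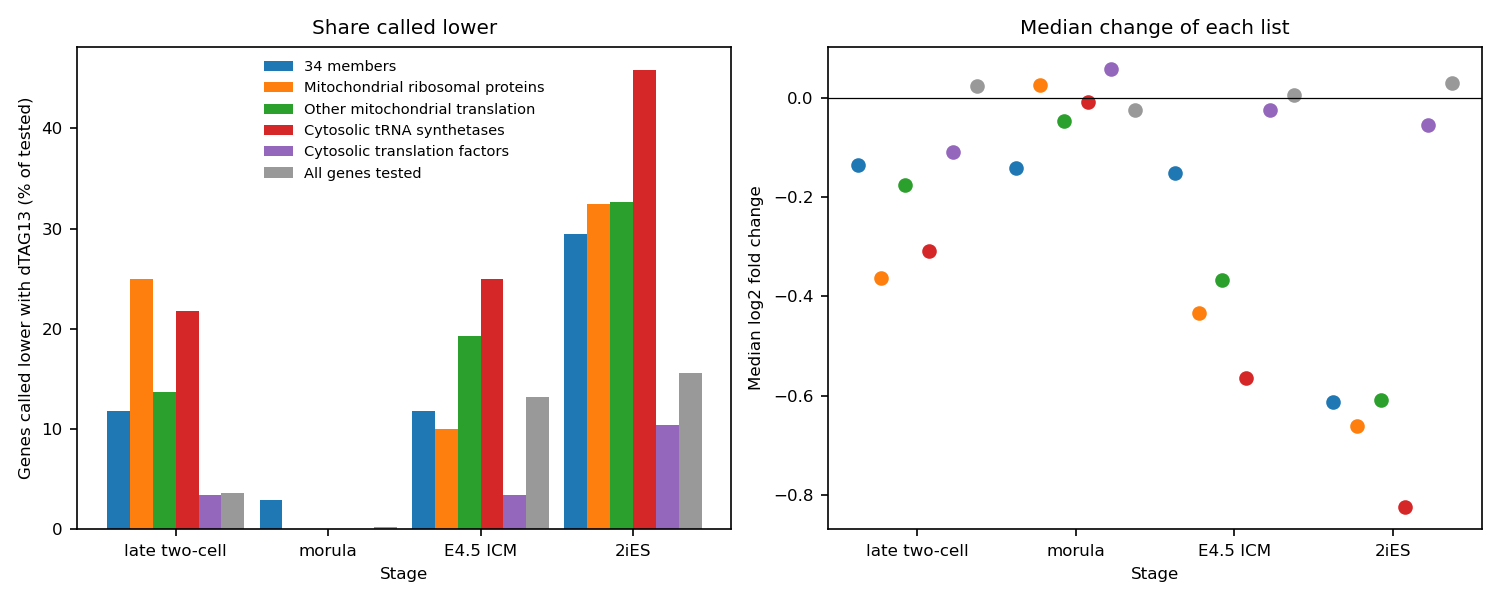
Left, share of the tested genes of each list called lower with dTAG13, in percent from 0, at each stage; right, median log2 fold change of the same lists. Blue marks the 34 members and grey all genes tested. In 2iES cells 29.4% of the members and 15.6% of all genes were called lower. In morulae the members are the only one of the drawn gene lists with a gene called lower. That is 1 gene, *Tufm*, whose call was lost with all 18 libraries in 1 fit.

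The mitochondrially encoded mRNAs are what this machinery translates. Of the 13, 0 were called lower at any stage by edgeR or DESeq2. At an unadjusted p under 0.05, 1 was lower in morulae and 0 at the other stages. In the ICM 11 of 12 tested were higher by the adjusted p alone (median 0.61), where 38.4% of all genes were. In 2iES cells 3 of 12 (25.0%) were called higher by edgeR (median 1.81), against 12.4% of all genes, and 0 by DESeq2. The 2iES DMSO libraries differed from each other in these mRNAs, at 3731 and 25210 TPM in sum, more than either treatment group did at the other stages.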

How the data were processed

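RNA-seq libraries (SMART-Seq v4 with Nextera XT, which does not mark strand) were processed by the authors: Trimmomatic 0.39, STAR and RSEM on GRCm38. The deposited gene tables give, per library, expected counts (estimated counts, not normalized), and TPM and FPKM, which the authors' RSEM run scaled for depth and transcript length. The other 27 samples of the series (binding, accessibility and the like) were not analysed here. Genes were named from GENCODE M21.

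Here, expected counts were rounded and tested within each stage with edgeR 4.0.16 (quasi-likelihood, TMM, R 4.3.3) for genes reaching 10 counts in a number of libraries equal to the smaller group. Benjamini-Hochberg adjustment ran over all genes tested, and the call also required a fold change of 2 and a mean FPKM of 1 in 1 group. Effects between stages and DMSO levels were tested in 1 fit of all 18 libraries. DESeq2 1.42.0 was an alternative, with other scalings, count minimums of 0 and 50, and each library left out. The SE is the log2 fold change over the square root of the F statistic. The test was checked on simulated data. TPM summaries used pandas 2.3.3 and numpy 2.4.6 in Python 3.11.15.

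All 34 members had enough counts to be tested at every stage. The rule for the members reads symbols alone, but the members and the comparison lists were proposed with earlier results of these data known. Values in every library are given for members called at 2 or more stages and for up to 3 called members with the largest change in each direction at a stage; other members are given by group values or counts, paralog pairs (*Mtrf1* and *Mtrf1l*, *Gfm1* and *Gfm2*, *Mtif2* and *Mtif3*) side by side, and *Gabpa* is the non-member named by rule. *Fars2*, *Tsfm* and *Mtg1* levels were chosen after their values were seen, as were the overlapping genes. Members sharing over 10% of their 31-base words with other genes (*Tufm*, *Mtif3*, *Iars2*, *Mrrf*, *Mtfmt* and *Guf1*) are uncertain. Same-numbered libraries did not deviate together (correlations from -0.22 to 0.109), so no replicate block was used.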

Additional observations from a re-analysis of the deposited data

Results flagged for a closer look

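Differences between stages in the effect of dTAG13 were the results picked out, each by the interaction term of the fit over all 18 libraries. The effect differed for 5 members between L2C and morula, 10 between L2C and ICM, 12 between L2C and 2iES, 5 between morula and ICM, 10 between morula and 2iES and 8 between ICM and 2iES. These were 14.7%, 29.4%, 35.3%, 14.7%, 29.4% and 23.5% of the members, against 6.47%, 20.3%, 22.9%, 16.1%, 20.3% and 17.4% of all genes. Without 1 library the lowest counts were 2, 5, 8, 5, 6 and 3 in the same order.

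Single members are listed where the difference passed the test and the directions by the adjusted p were opposite, and for *Tufm*, *Rars2* and *Noa1* where it passed. The *Tufm* effect in L2C was below that in morulae by a log2 difference of -4.21, the ICM by -3.17 and 2iES cells by -2.75. The *Rars2* effect differed by -1.83 (L2C minus morula), 1.83 (L2C minus 2iES), 2.75 (morula minus ICM) and 3.66 (morula minus 2iES). For *Noa1* the differences were -1.06 (L2C minus ICM), -1.23 (morula minus ICM) and -0.69 (morula minus 2iES), the last lost in 7 of 11 alternatives. *Gatc* differed by 2.33 between L2C and 2iES, *Mtif2* by -0.76 between L2C and ICM and by 0.74 between ICM and 2iES, and *Tsfm* by 0.91 between ICM and 2iES. The *Mtif2* differences passed in 6 of 13 and 2 of 11 alternatives.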

How the results depend on the processing

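Upper-quartile scaling shifted the median of all genes by over 0.1 in L2C (0.14), the ICM (0.11) and 2iES cells (0.21), where the members' medians were -0.01, -0.05 and -0.43. Of the values of single members under alternatives, 861 stayed past the threshold and 128 did not, and none changed direction. Only results past the adjusted p in the test used above entered this tally. In it, 56 values without a fold threshold and 56 with mean FPKM over all libraries reuse the same fit. The direction of those values could not change. Without a fold threshold 17 members were lower and 9 higher in the ICM, and 22 lower and 1 higher in 2iES cells. With all 18 libraries in 1 fit, 0 members were called in morulae. Scaling by library totals gave 14 members lower and 3 higher with DMSO in 2iES than in the ICM, against 8 and 9. Leaving out 1 library gave 2 to 3 members lower and 0 to 1 higher in L2C, 0 to 2 lower in morulae, 4 to 5 in the ICM and 10 to 13 in 2iES cells. The members whose effect differed then numbered 2 to 6 (L2C and morula), 5 to 12 (L2C and ICM), 8 to 16 (L2C and 2iES), 5 to 6 (morula and ICM), 6 to 11 (morula and 2iES) and 3 to 5 (ICM and 2iES, against 8 with all libraries, without any 1 of the 8). Leaving out any 1 ICM library gave 5 for L2C and ICM, against 10, and leaving out morula dTAG13 replicate 1 gave 2 for L2C and morula and 6 for morula and 2iES. With DMSO 3 to 5 members were lower in morulae than in L2C, 2 to 6 lower and 5 to 10 higher in 2iES than in the ICM. The cause was not tested. A replicate block gave 4 members lower in L2C, 1 in morulae, 4 in the ICM and 11 in 2iES cells. It moved no count of members by over 1.5 times. Over all genes in morulae it moved the calls from 27 lower and 21 higher to 142 lower and 106 higher. It ended 5 results of single members. Among them were *Mtif2* in L2C (adjusted p = 0.0561), the *Mtif2* difference between ICM and 2iES (adjusted p = 0.0781) and that of *Noa1* between morula and 2iES (0.0962). Since same-numbered 2iES libraries deviated oppositely (-0.22), a crossed pairing was added after seeing the data and also gave 11 lower and 0 higher.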
